A study of Mus musculus with 1 sample.

Results

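The genes described here are 35 mouse genes of the NRF2 pathway and of the antioxidant enzymes. They were chosen by name from the gene rows of the matrix, which lists 32285 genes, and all 35 had a row. They are Nfe2l2, which encodes NRF2, its inhibitor Keap1, and 33 genes of glutathione, thioredoxin, NADPH, superoxide, quinone and haem metabolism. The data are 1 single-cell RNA library of gastric organoids, which are stomach epithelium grown in a gel as small closed spheres. By the labels, the genotype was wild type, there was no treatment, the tissue was stomach, the cells were epithelial, and the harvest was on day 7 after seeding, with trypsin to separate the cells. They do not say how many mice the cultures came from. Other genotypes of the series were not analysed here.

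NRF2 is a transcription factor that KEAP1 holds in the cytoplasm and passes to a ubiquitin ligase for destruction. Oxidants and electrophiles modify cysteines of KEAP1, after which NRF2 builds up, pairs with small MAF proteins and binds antioxidant response elements near its target genes. Its known targets make and reduce glutathione and thioredoxin, supply NADPH and clear quinones, haem and lipid peroxides. In the stomach, surface epithelium meets acid, food toxins and peroxides, and a glutathione peroxidase typical of the gut epithelium, Gpx2, is among the known targets.

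RefSeq promoter windows, from 250 bases before to 50 bases after a start site on GRCm38.p6, were found for 30 of the 35 genes. They were searched on either strand for the antioxidant response element letters TGACNNNGC, which read GCNNNGTCA from the opposite strand. The letters were found in 10 of 39 windows of these genes (25.6%), against 12.4% of all 32851 windows. Counted by gene, they were found for 10 of 30 (33.3%), against 14% of all genes. The 10 genes are Nfe2l2, Srxn1, Gclm, Prdx1, Pgd, Ugdh, Me1, Txnrd1, Sod1 and G6pdx. A match is a description of the letters and no evidence of binding, and the absence of a match says only that the letters are not in that window. The Txnrd1 window belongs to a start site inside the range of the gene, chr10:82833951-82897712, so its stretch is not upstream of the whole gene. The stretches shown next are those of Gclm, Prdx1, Txnrd1 and Sod1, which lie wholly before the start site of their window and outside annotated exons. No other match met this rule, and the levels of the genes played no part in the choice. Capitals mark the matching letters, all found on the opposite strand.
Gclm, plus strand, chr3:122245402-122245452, letters at -134 to -126 from the start site: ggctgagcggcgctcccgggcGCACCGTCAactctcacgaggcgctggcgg
Prdx1, plus strand, chr4:116685445-116685495, letters at -133 to -125: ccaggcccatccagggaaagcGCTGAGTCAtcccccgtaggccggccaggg
Txnrd1, plus strand, chr10:82859093-82859143, letters at -92 to -84: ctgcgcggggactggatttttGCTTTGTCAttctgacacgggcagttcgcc
Sod1, plus strand, chr16:90220685-90220735, letters at -56 to -48: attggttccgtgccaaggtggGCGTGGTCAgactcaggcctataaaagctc

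Of 1991 barcodes, 1892 had at least 500 detected genes and at most 20% mitochondrial counts and were kept. They held 20118334 unique molecular identifiers (UMIs, each standing for 1 captured RNA molecule), with a median of 8512 per cell (range 890 to 47183). Epithelial markers were present, with Epcam detected in 96.6% of cells and Krt8 in 97.9%. Of 15 fibroblast, endothelial, immune and squamous markers, 6 had no UMI and 14 were found in at most 10 cells, the exception being Cd68 in 8.56%. The pit markers Tff1, Psca, Gkn1, Gkn2 and Muc5ac were found in 54.7%, 29.4%, 23.0%, 16.8% and 2.38% of cells. Among mucous neck markers, Aqp5 was in 91.0%, Cd44 in 23.5%, Tff2 in 7.08% and Muc6 in 0.0529%. Among chief markers, Pgc was in 1.64%, Bhlha15 in 0.370%, and Cblif and Pga5 in none. Among parietal markers, Kcnq1 was in 29.9%, Atp4a in 1.43% and Atp4b in none. With 1 library there was no replicate and no test. Every interval below is at 95% and covers counting error only.

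The 35 genes together took 0.681% of all UMIs, or 6812 UMIs per 1000000 (CPM, computed over the kept cells). Because a 3' library yields 1 tag per molecule, CPM were compared between genes without division by length. The median gene stood at 68.9 CPM, 20 genes were under 100 CPM, 8 were over 300 CPM, and 11 were among the 500 highest genes of the library. The 6 peroxiredoxins summed to 2426 CPM. In contrast, 7 genes often used as a readout of NRF2 activity (Nqo1, Gclc, Gclm, Slc7a11, Srxn1, Txnrd1 and Hmox1, the core targets from here on) summed to 237 CPM. Prdx1 (1535 CPM) and Gpx4 (905 CPM) were the most abundant of the 35 genes, and Srxn1 (6.31 CPM) and Nqo1 (2.14 CPM) the least.

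To see where in the culture these genes were used, cells were clustered without them and without 77 other genes of the same pathway. A fixed list of cell cycle genes, a list of sex-linked genes and the mitochondrial genes were also left out. Other cell cycle genes, Aspm and Knl1 among them, were not on that list. Of 7 clusters, numbered by size from 391 to 61 cells, cluster 6 (115 cells, led by Aspm and Knl1) was proliferating-like, and the others stay unnamed. Cluster 1 was led by 2610528A11Rik and Gm39228, cluster 2 by Cxcl5 and Cxcl2, cluster 3 by Ly6m and Sprr1a, cluster 4 by Aox3 and Cbr2, and cluster 5 by Scgb3a1 and Pcolce. Cluster 7 had 61 cells, 3.22% of all, and its leading genes by fold were Cyba, Reg3g, Gm3776, Gsta2 and Gsta1. It also stood apart in other ways. Its cells held a median of 14450 UMIs against 8306 in the other cells, and 32 of 61 (52.5%) had a UMI of a Y-linked gene against 18 of 1831 (0.983%). Several markers of stomach lineages were also higher in it than in the other cells, in UMIs per 1000000 (CPM). Of the 5 pit cell markers, Tff1 was at 4166 against 104 CPM and in 36 of its 61 cells, Gkn1 at 562 against 45.0, Gkn2 at 422 against 21 and Muc5ac at 62.8 against 2.67, while Psca was at 181 against 96.6. Of the 4 chief cell markers, Pgc was at 49.8 against 1.10 CPM, and Cblif, Pga5 and Bhlha15 had no UMI in it. The part of these features in the results below was not tested. Whether those cells came from another animal was not tested either, and the labels tie no animal to a cell.

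Cluster 7 had the highest level of the core targets and is singled out for that reason. Their sum there was 752 CPM (interval 700 to 808), against 210 CPM (204 to 217) in the other cells, a ratio of 3.58 (3.31 to 3.87). In the other clusters the sum ran from 160 CPM in cluster 1 to 255 CPM in cluster 6. Cluster 7, with 4.99% of all UMIs, held 15.8% of the core target UMIs. After each cell was thinned to 3000 UMIs, 48.3% of its cells (35.2% to 61.6%) had UMIs of at least 2 core targets, against 9.35% (8.04% to 10.8%) elsewhere, and 12 of 60 (10.8% to 32.3%) had at least 3, against 1.01% (0.602% to 1.60%). Without thinning, at least 3 were seen in 68.9% and 18.6%. The difference was therefore present at equal depth as well.

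**Figure D1:**
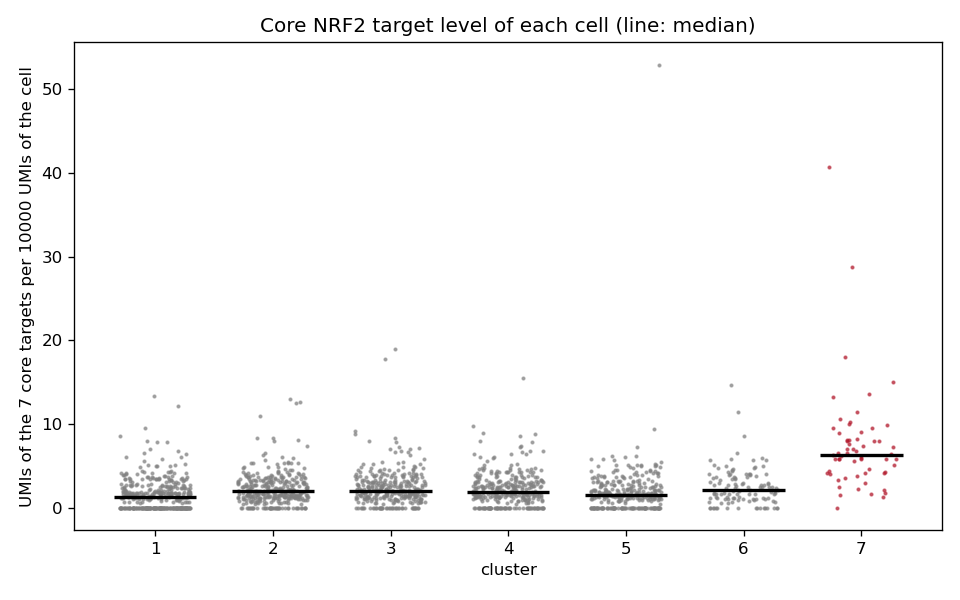
Core target level of each kept cell by cluster. Each point is 1 cell, the vertical axis gives the UMIs of the 7 core targets per 10000 UMIs of the cell, and the black line is the median. The median of cluster 7 is 6.33 against 1.75 over the other cells, and single cells reach 40.7 in cluster 7 and 53.0 in cluster 5.

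Cluster 7 was not the only place where such cells were found. Of the other 1831 cells, 58 (3.17%) lay at or above the median of cluster 7. In all clusters some cells had no core target UMI, from 1 cell of cluster 7 (1.64%) to 151 cells of cluster 1 (38.6%), where depth was lowest at a median of 6335 UMIs.

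In cluster 7, 20 of the 35 genes were at least 1.5 times their level in the other cells and 0 were at or below 0.667 of it. Of the 31 genes with at least 500 UMIs, 17 were past 1.5, where 15.2% of all 3850 genes of that depth were, and 15.1% of those genes were at or below 0.667. The median ratio of the 35 genes was 1.91 and that of all genes was 1.02. The 4 genes below that depth were Keap1, Hmox1, Srxn1 and Nqo1. Only members past 1.5 are called higher here. The 20 include all 7 core targets, whose sum singled the cluster out, so those are no independent support. Of the other 28 genes 13 were past 1.5, all of them among the 27 with at least 500 UMIs, and the median ratio of the 28 was 1.45. Slc7a11 reached 500 UMIs only with the 113 it had in cluster 7. Of the members that reached 500 UMIs without cluster 7, 16 of 30 were past 1.5, against 14.4% of 3683 genes that did. Just past 1.5 was Prdx1 at 1.75, and just short of it were Me1 at 1.45 and G6pdx at 1.44.

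**Figure D2:**
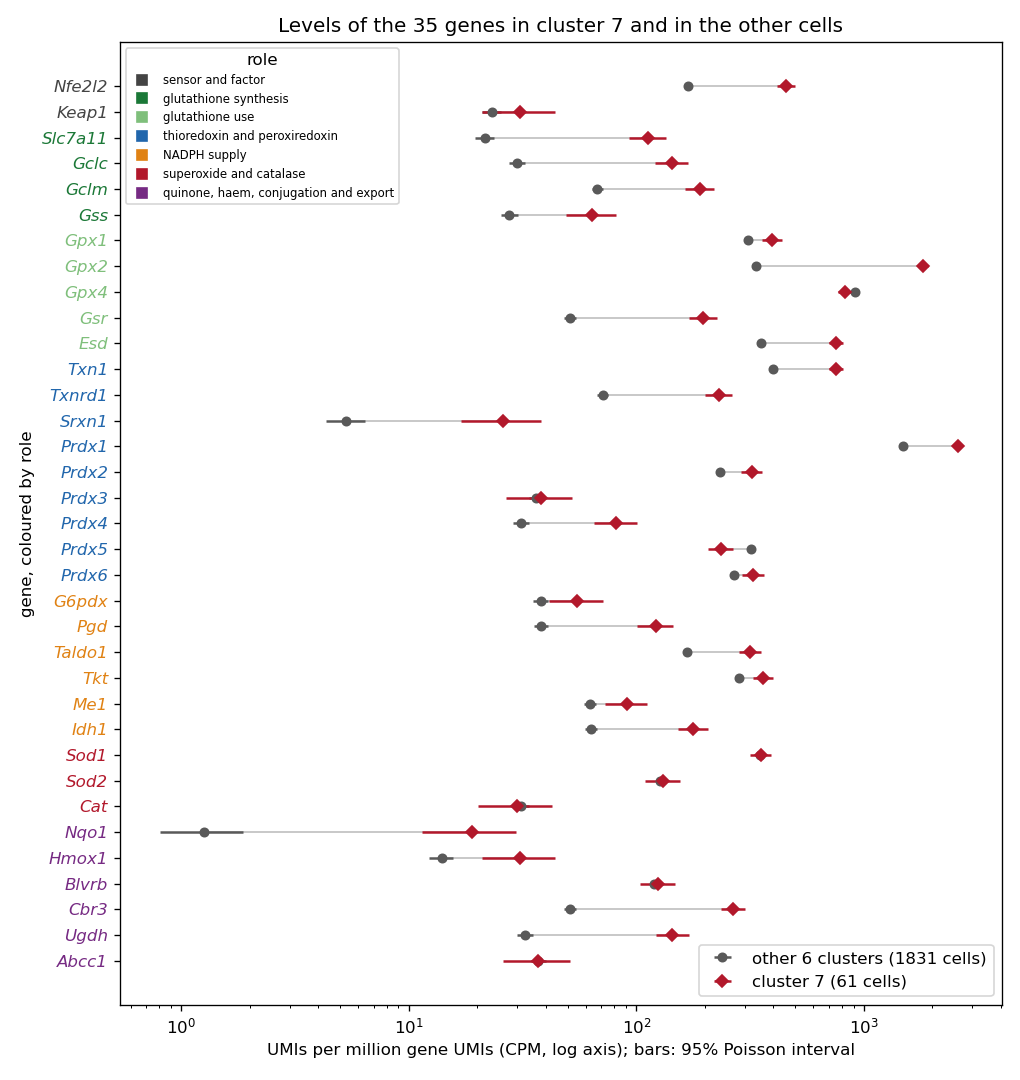
Level of each of the 35 genes in cluster 7 (red diamonds) and in the other 6 clusters (grey circles). The horizontal log axis is in CPM, bars are Poisson intervals, and gene names are coloured by role. The gap is widest for Nqo1, at 18.9 against 1.26 CPM, while Sod1, Sod2, Cat, Blvrb and Abcc1 nearly coincide.

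Of the factor and its sensor, only the factor was higher in cluster 7. Nfe2l2 (chr2:75675513-75704641, minus strand) was found in 74.2% of cells at 183 CPM. By cluster it stood at 148, 170, 169, 190, 166 and 157 CPM in clusters 1 to 6 and at 456 CPM (415 to 500) in cluster 7, a ratio of 2.71 (2.46 to 2.99) to the other cells. Outside cluster 7 its levels lay within a factor of 1.28. Keap1 (chr9:21229730-21239361, minus strand) was at 23.5 CPM over the library. It stood at 30.9 CPM in cluster 7 against 23.1 CPM elsewhere, and the interval of its ratio of 1.34, 0.897 to 1.92, included 1.

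All 4 genes of glutathione synthesis were higher in cluster 7, and their sum was 510 CPM there against 146 CPM elsewhere, a ratio of 3.49 (3.17 to 3.83). Slc7a11 (chr3:49892526-50443614, minus strand), the cystine importer, stood at 12.6, 25.0, 28.8, 22.0, 15.8 and 13.8 CPM in clusters 1 to 6 and at 113 CPM in cluster 7, a ratio of 5.24 (4.21 to 6.46). Gclc (chr9:77754535-77794485, plus strand), the catalytic subunit of glutamate-cysteine ligase, stood at 21.5, 26.1, 37.8, 35.8, 17.4 and 45.0 CPM and at 143 CPM in cluster 7, a ratio of 4.79 (3.97 to 5.77). For both genes the value in cluster 7 lay above all 6 others, while clusters 1 and 5 were low. Gclm (chr3:122245557-122270732, plus strand), the modifier subunit of that ligase, was more abundant than Gclc over the library, at 73.3 against 35.6 CPM, and was at 190 CPM in cluster 7 (ratio 2.83). Gss, which adds glycine in the last step, was the flattest, with 24.5 to 30.0 CPM outside cluster 7 and 63.8 CPM within it (ratio 2.31).

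Among the genes that use or recycle glutathione, Gpx2 and Gsr were the ones most raised in cluster 7. Gpx2 (chr12:76792333-76795554, minus strand) stood at 221, 352, 195, 535, 411 and 402 CPM in clusters 1 to 6 and at 1824 CPM (1742 to 1910) in cluster 7, a ratio of 5.43 (5.15 to 5.72). It also varied most of this group outside cluster 7, with cluster 4 at 2.74 times cluster 3. Gsr, which reduces oxidised glutathione with NADPH, was at 197 CPM in cluster 7 against 51.2 CPM elsewhere (ratio 3.85, 3.29 to 4.49). Esd, an esterase that releases glutathione from its formyl conjugate, was at 752 against 353 CPM (ratio 2.13). The widely expressed peroxidases differed less. Gpx1 was at 396 against 310 CPM (ratio 1.27, 1.15 to 1.41). Gpx4, which reduces lipid peroxides in membranes and was found in 97.8% of cells, was at 828 against 909 CPM (ratio 0.911, 0.849 to 0.976).

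In the thioredoxin system, the reductase and sulfiredoxin had the larger ratios and the abundant peroxiredoxins the smaller ones. Txnrd1 (chr10:82833951-82897712, plus strand), the cytosolic thioredoxin reductase, stood at 52.9 to 92.9 CPM in clusters 1 to 6 and at 230 CPM in cluster 7 (ratio 3.24, 2.80 to 3.72). Srxn1 (chr2:152105516-152111376, plus strand), which repairs overoxidised peroxiredoxins, had 127 UMIs in all and was at 25.9 CPM (16.9 to 38.0) against 5.28 CPM (4.30 to 6.42), a ratio of 4.90 (3.06 to 7.61). Txn1, thioredoxin itself, was at 756 against 397 CPM (ratio 1.91). Of these 3 genes the sparsest had the largest ratio.

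The 6 peroxiredoxins, which reduce peroxides with a reactive cysteine, differed among themselves. Prdx1 (chr4:116685544-116700822, plus strand), the most abundant of the 35 genes at 1535 CPM, was at 1148, 1702, 1015, 1419, 2056 and 2026 CPM in clusters 1 to 6 and at 2594 CPM (2495 to 2695) in cluster 7, a ratio of 1.75. Prdx4, which resides in the endoplasmic reticulum, was high in 2 clusters, at 81.7 CPM in cluster 7 and 84.2 CPM in the proliferating-like cluster 6, against 17.4 to 38.4 CPM in the others. It was the only gene of the 31 past 1.5 in cluster 6 (ratio 2.80), where 4.78% of all genes were. Prdx2, Prdx3 and Prdx6 had ratios of 1.38, 1.04 and 1.21 in cluster 7. Prdx5 was below its level elsewhere, at 235 against 318 CPM (ratio 0.740, 0.647 to 0.842).

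Among the genes of NADPH supply, 3 of 6 were higher in cluster 7. Pgd, the second NADPH-forming enzyme of the pentose phosphate pathway, was at 122 against 38.1 CPM (ratio 3.19, 2.61 to 3.87). Idh1, the cytosolic isocitrate dehydrogenase, was at 178 against 63.1 CPM (ratio 2.82), and Taldo1, transaldolase, at 317 against 166 CPM (ratio 1.91). G6pdx, which opens the pentose phosphate pathway, was at 54.8 against 37.9 CPM (ratio 1.44, 1.08 to 1.90), close to its 53.4 CPM in cluster 2. Tkt, transketolase, had a ratio of 1.28, and Me1, malic enzyme, one of 1.45.

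The superoxide dismutases and catalase stood at nearly equal levels in cluster 7 and elsewhere. Sod1, Sod2 and Cat summed to 513 CPM in cluster 7 and to 507 CPM elsewhere, a ratio of 1.01 (0.925 to 1.11). Their variation lay in other clusters. Sod1, the cytosolic copper-zinc superoxide dismutase, was at 289, 335, 457, 390, 176 and 380 CPM in clusters 1 to 6 and at 353 CPM in cluster 7, lowest in cluster 5 and highest in cluster 3. Cat, catalase, was at 10.2, 50.2, 23.5, 32.6, 25.1 and 42.1 CPM and at 29.9 CPM in cluster 7, so that cluster 2 had 4.92 times the level of cluster 1. Sod2, the mitochondrial enzyme, stayed between 111 and 146 CPM.

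The quinone, haem and conjugation genes held the largest ratio and also 2 of those nearest 1. Nqo1 (chr8:107388225-107403206, minus strand), a quinone reductase and the usual reporter of NRF2, was nearly absent from the library, with 43 UMIs in 32 cells (1.69%). Of these, 19 UMIs in 13 of 61 cells (21.3%) were in cluster 7 and 24 UMIs in 19 of 1831 cells (1.04%) in the others, a ratio of CPM of 15.1 (7.81 to 28.7). Cluster 1 had none in 391 cells, where 3 counts would have been a share of 0.767%. Over the library, the share of 1.69% lay above that of 14 of the 15 non-epithelial and squamous markers and below that of Cd68. Cbr3, a carbonyl reductase, was at 266 against 51.2 CPM (ratio 5.19, 4.52 to 5.95), and Ugdh, which makes UDP-glucuronate, at 144 against 32.3 CPM (ratio 4.47). Hmox1 (chr8:75093621-75100589, plus strand), haem oxygenase, was at 30.9 against 14 CPM (ratio 2.21, 1.47 to 3.21). Of its 31 UMIs in cluster 7, 13 were in 1 cell. Blvrb, biliverdin reductase, and Abcc1, an exporter of glutathione conjugates, had ratios of 1.04 (0.859 to 1.24) and 0.994 (0.694 to 1.38).

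The count for cluster 7 was repeated on other sets of cells. It runs over all 35 genes, including those under 500 UMIs and the 7 core targets that singled the cluster out. The shares beside it are of genes with at least 500 UMIs. Its 32 cells with a Y-linked UMI had 19 genes past 1.5, where 16.3% of all genes were, and its 29 cells without one had 21, where 17.0% were. Against clusters 2 and 3 alone, the other clusters of greatest depth with medians of 12033 and 12454 UMIs, 20 genes were past 1.5, where 13.6% of all genes were. This narrows the gap in depth to cluster 7 without closing it. Over 16 alternatives the count ran from 17 to 22, and 16 of the 35 genes were past 1.5 in all of them. Of the 4 others, Hmox1 fell short most often, with ratios from 1.11 to 3.25. At resolution 0.3, with 50 components and with 30 neighbours, the cells of cluster 7 joined larger clusters of 143, 176 and 152 cells. Each of those held 60 of the 61 cells. Over all settings the ratio of Gpx2 ran from 2.95 to 6.62 and that of Nqo1 from 5.62 to 24.3. When the 3 cells described below were left out, 19 genes were past 1.5, where 15.5% of all genes were. Slc7a11 then went from 5.24 to 3.49 and Hmox1 from 2.21 to 1.34, the only ones of the 20 to move by 1.5 times or more. By promoter, of the genes with at least 500 UMIs, 6 of 9 with antioxidant response element letters were past 1.5 and 9 of 18 without. Over all genes of that depth the shares were 14.3% of 581 with the letters and 16.0% of 2512 without.

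**Figure D3:**
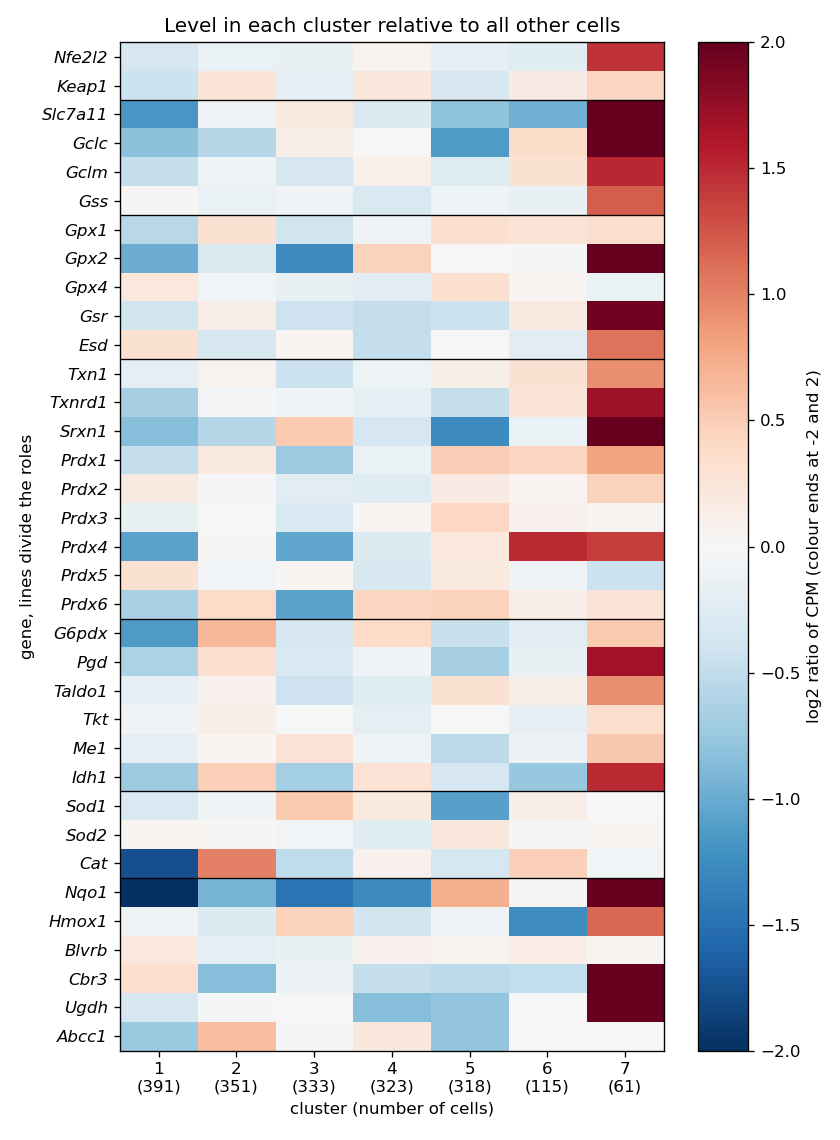
Level of each gene in each cluster relative to all other cells, as the log2 ratio of CPM. Columns are clusters with their number of cells, rows are genes grouped by role, and the colour scale is centred on 0. The column of cluster 7 is red for 20 genes past a ratio of 1.5, and that of cluster 1 is blue for 13 genes at or below 0.667.

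In the other 6 clusters fewer genes were past 1.5, and all of them but cluster 2 had more genes at or below 0.667 than past 1.5. All genes with at least 500 UMIs leaned the same way in clusters 1, 3, 4 and 5. Of those genes 2.81%, 4.65%, 1.95% and 1.84% were past 1.5 there. Cluster 4 had 2 members at or below 0.667, 1 of the 31, where 5.79% of all genes were. Cluster 6 had 3, 2 of the 31, where 3.45% of all genes were and 4.78% were past 1.5. In cluster 1, 13 genes were at or below 0.667, 11 of the 31 of sufficient depth, where 18.9% of all genes were. They included Cat (ratio 0.296), Slc7a11, G6pdx, Prdx4 and Gpx2 (0.501). In cluster 5, 7 genes were that low, 6 of the 31, where 20.7% of all genes were, among them Gclc (0.456) and Sod1 (0.471). In cluster 3 there were 6, 5 of the 31, where 6.16% of all genes were, among them Gpx2 (0.412), Prdx6 (0.475) and Prdx1 (0.603). In cluster 2, G6pdx (1.56), Abcc1 (1.51) and Cat were past 1.5, 3 of the 31, where 7.09% of all genes were. The shares in clusters 2 and 5 were near those of all genes. The ratio of all genes had a median of 0.879 in cluster 1 and 0.890 in cluster 5, beside 0.760 and 0.942 for the 35 genes.

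Whether the genes rose together in the same cells was described by the correlation of residual counts, which are counts minus the level expected from the depth of the cell, in units of their expected spread. Cells of 1 library share its preparation and free RNA, so r is given as a description, without p. Over 1892 cells, 154 of the 595 pairs of members had an r of at least 0.1. Among genes with at least 500 UMIs this was 128 of 465 pairs (27.5%), against 2.13% of all pairs of genes, and 7 pairs had an r of at most -0.1, where 1.36% of all pairs did. Correlation grows with depth, and among genes with at least 2000 UMIs the shares were 42 of 105 pairs (40.0%) and 11.4%. In both counts the share of member pairs was above that of all pairs. On counts thinned to 3000 UMIs per cell, 24 of the 595 pairs reached 0.1, and 21 of the 465 (4.52%) against 0.286% of all pairs.

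Without cluster 7 most of these pairs fell short of 0.1. Over the other 1831 cells, 54 of 595 pairs reached it, 45 of 465 (9.68%) against 1.99% of all pairs, with 7 pairs at or below -0.1 against 1.34%. Among genes with at least 2000 UMIs, 30 of 105 pairs (28.6%) reached it against 11.1%. Of 104 pairs that no longer reached 0.1, 12 joined core targets, 15 joined genes with at least 2000 UMIs, and 77 were of neither kind.

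Of the 54 pairs at or above 0.1 without cluster 7, 30 joined genes with at least 2000 UMIs. Txn1 and Prdx1 had an r of 0.35 over all cells and 0.28 without cluster 7. Prdx1 and Prdx6 had 0.33 and 0.34, Gpx1 and Prdx1 had 0.33 and 0.31, and Gpx2 and Prdx1 had 0.33 and 0.24. Sod1 ran the other way, with an r of -0.27 to Prdx1 over all cells and -0.29 without cluster 7, and of -0.23 to Gpx4 in both cases. In the levels by cluster, cluster 5 had the highest Prdx1 and Gpx4 of clusters 1 to 6, at 2056 and 1098 CPM, and the lowest Sod1.

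Of the pairs of core targets few reached 0.1 without cluster 7. Over all cells 15 of 21 had an r of at least 0.1, with a median of 0.13 and the highest between Slc7a11 and Gclc at 0.38. Without cluster 7 there were 3 of 21, with a median of 0.04, and Slc7a11 and Gclc were at 0.07. The 3 pairs were Srxn1 with Nqo1 (0.22), Nqo1 with Hmox1 (0.19) and Srxn1 with Hmox1 (0.11). Nfe2l2 and Gclc, the factor and a classical target, were at 0.27 over all cells and 0.04 without cluster 7.

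**Figure D4:**
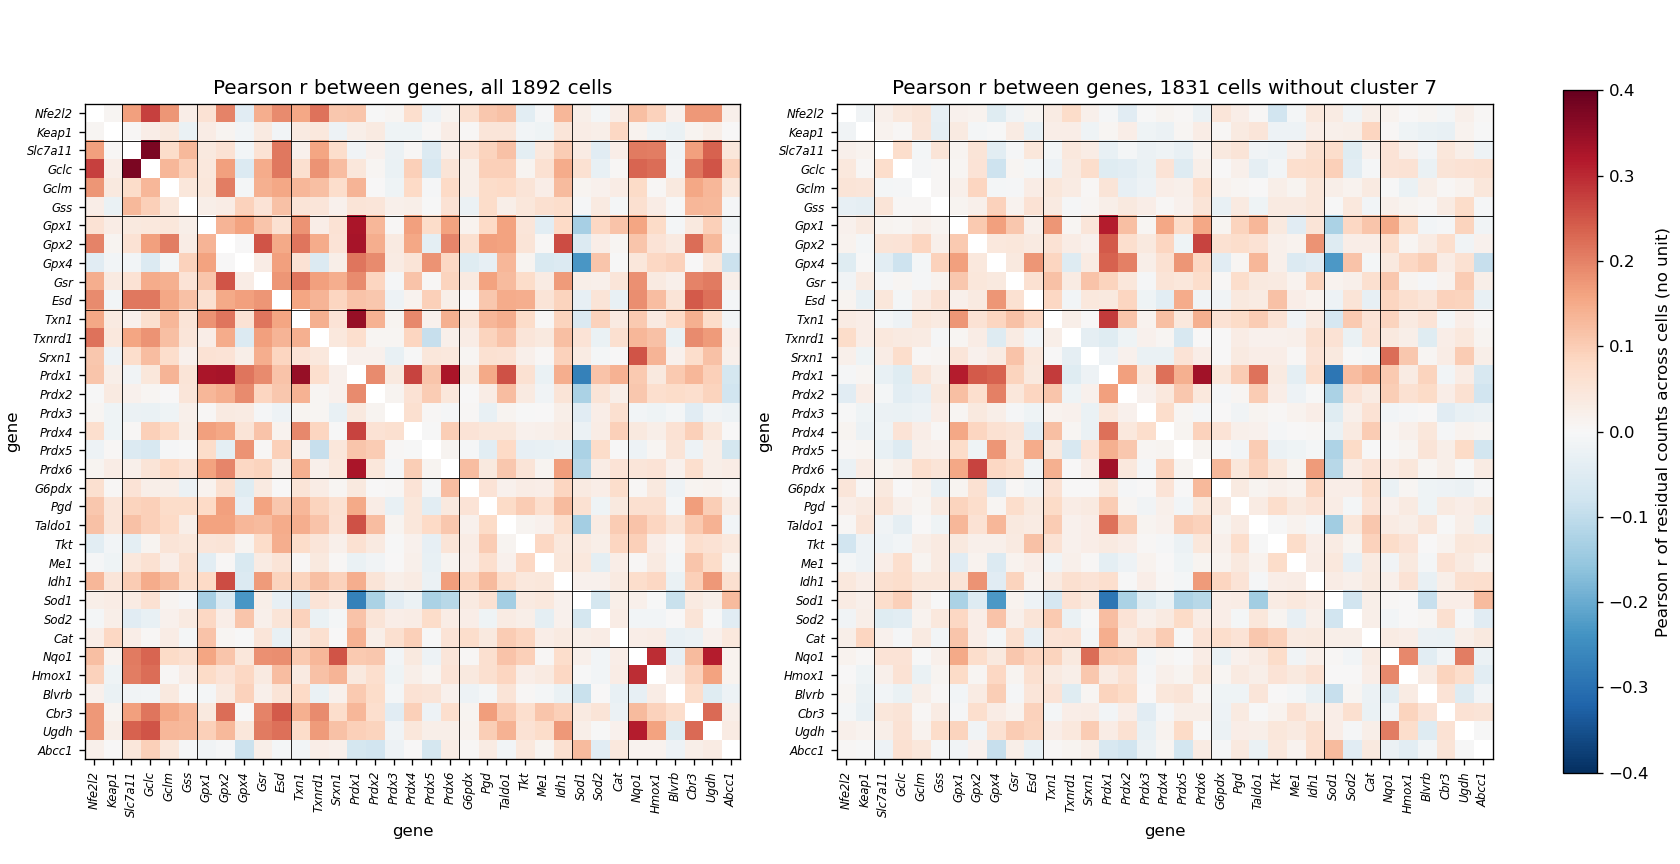
Pearson r between the residual counts of each pair of genes over all 1892 cells (left) and over the 1831 cells without cluster 7 (right). Rows and columns are genes in order of role, and red is positive and blue negative. The red blocks among glutathione synthesis and quinone genes fade on the right, while several pairs of Prdx1 and the blue lines of Sod1 stay.

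Single cells carried much of what was left. After the values were seen, 3 cells were picked out because their core target level stood apart. In cluster 7, 1 cell had 40.7 core target UMIs per 10000, with 19 UMIs of Slc7a11, 17 of Gclc, 13 of Hmox1, 12 of Txnrd1 and 3 of Nqo1. A further cell of cluster 7 was at 28.7 per 10000, with 21 UMIs of Slc7a11 and 12 of Gclc, and the next highest of that cluster was at 18.0. In cluster 5, a cell of 1888 UMIs was at 53.0 per 10000, with 5 UMIs of Nqo1, 2 of Srxn1 and 2 of Hmox1, while the next highest cell outside cluster 7 was at 19.0. Mt1, a metallothionein, gave 187, 189 and 1239 UMIs per 10000 in these cells, against a median of 9.48 over all cells, and the last of these was the highest of the library.

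Without those 3 cells the pairs of core targets at or above 0.1 went from 15 to 9 of 21 over all cells, and Slc7a11 with Gclc from 0.38 to 0.12. Without cluster 7 and the cell of cluster 5, the count was 0 of 21, with a median of 0.03, and Srxn1 with Nqo1 was at 0.00. Within cluster 7, 16 of 21 pairs had reached 0.1 over its 61 cells, and 6 of 21 did over 59 cells without the pair of high ones. So few cells give a wide scatter, with 24.5% and 24.8% of all pairs of genes at or above 0.1. Of the 465 pairs of members with at least 500 UMIs, 167 (35.9%) and 159 (34.2%) were, while 93 and 94 were at or below -0.1. The abundant pairs moved little, with Txn1 and Prdx1 at 0.35 and Prdx1 and Prdx6 at 0.33 without the 3 cells.

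Each gene was also compared with the core target score, the mean residual of the core targets other than the gene itself. Over all cells 20 of the 35 genes had an r of at least 0.1 with it, 17 of the 31 of sufficient depth, where 4.36% of all genes did. The highest were Gclc (0.41), Nqo1 and Ugdh (0.38), Slc7a11 (0.34), Nfe2l2 and Hmox1 (0.31) and Esd (0.30). Of these, Nfe2l2, Ugdh and Esd are not part of the score. Without the 3 cells that stand apart, 18 genes reached 0.1, and Cbr3 (0.30), Nfe2l2 (0.27), Ugdh (0.25) and Esd (0.25) led, while Gclc was at 0.21, Nqo1 at 0.18, Slc7a11 at 0.15 and Hmox1 at 0.04. Over all cells Keap1 was at 0.02, Sod2 at -0.03 and Prdx5 at -0.05. Without cluster 7, 8 genes remained at or above 0.1, 5 of the 31, where 1.35% of all genes did, and without the cell of cluster 5 as well there were 2. Nfe2l2 was at 0.07 without cluster 7.

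The size of the joint rise was read from the cells with the highest and the lowest core target score, 473 in each, a range of a score and not a cell type. The high cells held 52 of the 61 cells of cluster 7, and the low cells held 1. Between them 12 genes differed at least 1.5 times, all upwards, and 9 of the 31 did, where 2.55% of all genes did. Nqo1 was at 5.57 against 0.394 CPM, from 30 and 2 UMIs (ratio 14.1, 3.59 to 122). Ugdh was at 57.1 against 28.7 CPM (ratio 1.99), Cbr3 at 96.5 against 49.1 (1.96), Gpx2 at 603 against 310 (1.95) and Nfe2l2 at 233 against 147 (1.58, 1.45 to 1.74). Prdx1 (ratio 1.05), Gpx4 (0.932) and Sod2 (0.971) were near equal. Within 0.0500 of a standard deviation of the low and the high limit lay 190 and 79 cells.

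Without cluster 7, with 457 cells on each side, 2 genes were past 1.5, Srxn1 and Nqo1, both under 500 UMIs. This was 0 of the 31 genes, where 1.09% of all genes were past 1.5. Nfe2l2 was then at 187 against 145 CPM (ratio 1.29, 1.17 to 1.42), Ugdh had a ratio of 1.38 and Idh1 one of 1.36, and the median over the 35 genes was 1.09 against 1.05 for all genes.

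**Figure D5:**
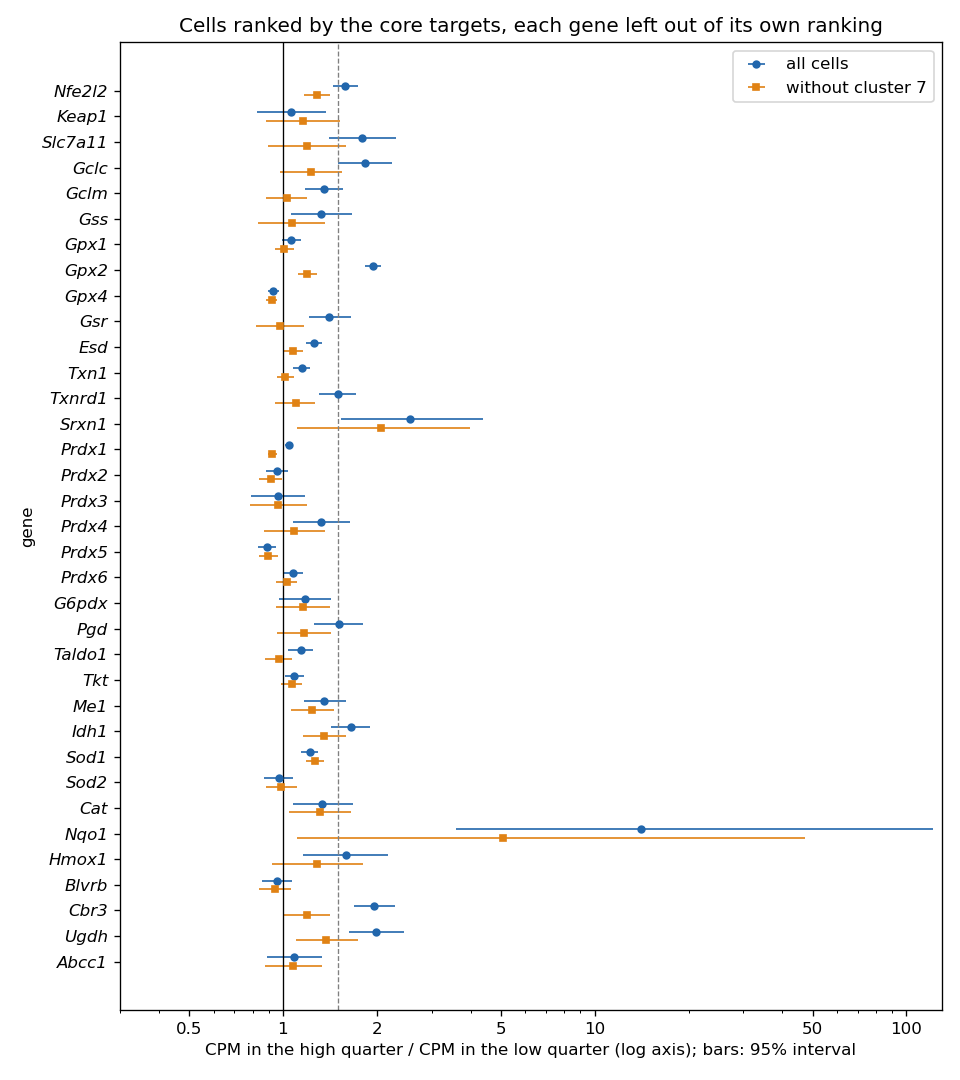
Ratio of CPM between the cells with the highest and the lowest core target score for each gene, over all cells (blue circles) and without cluster 7 (orange squares). The log axis is the ratio, bars are conditional binomial intervals, the solid line marks 1 and the dashed line 1.5. Blue points pass the dashed line for 12 genes and orange points for 2.

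The library carried multiplexing tags, and 1062 cells had CMO301 and 830 had CMO302 as their highest tag. The labels do not say what the tags mark. Between the tags 0 of the 35 genes were 1.5 times apart, where 0.130% of all genes were, with ratios from 0.908 for Cat to 1.35 for Nqo1. The interval excluded 1 for 3 genes, Gclc (1.23), Prdx1 (1.05) and Prdx3 (1.33), all among the 31 of sufficient depth, where it did for 9.97% of all genes. Within CMO301 cells, cluster 7 had 22 of the 35 genes past 1.5, where 16.0% of all genes were. It had 0 at or below 0.667, where 14.7% were. Within CMO302 cells it had 20 of the 35, where 16.4% were, and 1 at or below 0.667, where 20.5% were. As above, the counts include genes under 500 UMIs and the core targets, while the shares are of genes with at least 500 UMIs.

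Other genes of the pathway were taken from a list of 77 textbook genes, of which 76 had a row and 37 at least 500 UMIs. Mgst2 and Glrx reached that depth only with their UMIs in cluster 7. Of the other 35 genes, 13 were past 1.5 in cluster 7, beside the 14.4% of all genes with that depth outside it. At or below 0.667 were 4, beside 15.1% of the 3850 genes with at least 500 UMIs over all cells. Among these 35 genes, 10 of 15 glutathione transferases and other detoxifying enzymes were past 1.5, and 1 was low. That was Mgst1, a microsomal transferase (ratio 0.660). Gsta1, an alpha class transferase, was at 1987 against 34.1 CPM (ratio 58.3), Gsta4 at 2221 against 536 CPM (4.14) and Gsto1 at 2287 against 490 CPM (4.66). Also past 1.5 were Gsta3 (2.89), Mgst2 and Mgst3 (2.82 each), Ephx1 (2.85), an epoxide hydrolase, Akr1b8 (2.25) and Cbr1 (1.69), while Gstm2 was at 0.837 and Gstm1 at 1.27. Outside this group, Ptgr1, a prostaglandin and alkenal reductase, was at 150 against 29.1 CPM (5.16). Gsta1, like the nearly identical Gsta2, is uncertain, since the counting could split reads between copies, and the same holds for Gstp1 (1.75) and Gstp2 (1.84). Aldh3a1, an aldehyde dehydrogenase below that depth, was at 204 against 9 CPM (ratio 22.7).

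Of 6 regulators around NRF2, 0 were past 1.5, beside the same 14.4% of all genes. Maff, a small MAF partner, was at 20.9 against 47.8 CPM (ratio 0.438). Mafg, another small MAF, was at 35.9 against 33.7 CPM (1.06). Cul3 (1.17) and Rbx1 (1.26), parts of the ligase that KEAP1 serves, and Sqstm1 (0.861), which can bind KEAP1, also fell short of 1.5. Of the ferritin chains, Ftl1 was higher (ratio 1.58) and Fth1 lower, at 7704 against 15455 CPM (0.498). Txnip, an inhibitor of thioredoxin, was at 209 against 726 CPM (ratio 0.288). Glrx3 was at 149 against 61.8 CPM (2.42), and Slc3a2, the partner chain of the cystine importer, at 113 against 114 CPM. Cyba, a subunit of superoxide-producing NADPH oxidases, had 97 UMIs in cluster 7 and 12 elsewhere. Its catalytic partner Nox1 had 2 and 5.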

How the data were processed

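The deposited matrix holds raw UMI counts per feature and barcode, written by Cell Ranger 6.1.2 per the file headers, and the series' design text names GRCm38/mm10 as the genome. The annotation used for counting is not given in the sources used here. Gene coordinates were taken from GENCODE M21, promoters from RefSeq. The 12 multiplexing tags stayed out of library sizes. The 35 genes and all lists were chosen with earlier results of these data known. CPM are summed UMIs per 1000000. Intervals were exact Poisson for CPM, Clopper-Pearson for shares and conditional binomial for ratios. Counts became Pearson residuals (negative binomial, theta 100). Clusters were made with scanpy 1.11.5 and leidenalg 0.10.2 (2000 variable genes, 30 components, 15 neighbours, resolution 0.6, seed 0). Scrublet called 12 doublets, which were kept and removed in an alternative. Thinning to 3000 UMIs kept 1835 cells and left out 57. The scripts were tested on simulated data. numpy 2.4.6, scipy 1.17.1 and matplotlib 3.10.9 were used.

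All 35 genes are named, and of the pathway list those past 1.5 in cluster 7 with at least 500 UMIs, with others chosen after their values were seen. Leading genes of a cluster had 50 or more UMIs and were found in 10% or more of its cells. Alternatives were other cell filters, values, scores and clusterings. Those with the Y-linked UMIs, the clusters of greatest depth, the ribosomal genes, thinning in the cluster comparison and the 3 cells that stand apart were chosen after seeing the data.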

Additional observations from a re-analysis of the deposited data

How the results depend on the processing

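The count of genes past 1.5 in cluster 7, 20 as reported, was 17 with a fold of 2 and stayed within 1.5 times under every alternative run. The correlation counts did not. The 154 pairs with r of at least 0.1 became 97 on ln(x + 1) of scaled counts, 24 on counts thinned to 3000 UMIs, 62 with residuals centred within clusters, 54 without cluster 7, and 42 without cluster 7 and the cell of cluster 5. The 20 genes with r of at least 0.1 with the core target score became 5 on thinned counts, 4 by Spearman, 13 with centring, 8 without cluster 7, and 2 without that cell too. The 12 genes past 1.5 between high and low scores became 7 with a score from thinned UMIs, 5 when all cells were divided at the median score, 2 without cluster 7, with or without that cell, and 2 with a fold of 2. Against the score, Nqo1 went to -0.00 on thinned counts and Prdx1 to -0.01 with centring. The cause was not tested. Of the values of single genes, 1167 were within their interval or on their side of the limit, 336 moved and 2 reversed. No paired analysis was possible because 1 library has no pair. Depth limits Nqo1, Srxn1, Hmox1 and Keap1, each under 500 UMIs.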

Other observations

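Beside the 35 genes, the genes whose residual counts were most like the core target score over all 1892 cells were, by a rule set with the gene lists, Gsta1 (r 0.52), Mt2 (0.49), Gsto1 (0.48), Rdh10 (0.42), Clu (0.40), Gsta4 (0.37), Rps27l (0.34), Serpinb6b (0.33), St8sia6 (0.31) and Cyb5a (0.31). Gsta1, Gsto1 and Gsta4 are on the pathway list. Mt2 encodes a metallothionein, a cysteine-rich protein that binds zinc and copper, Rdh10 a retinol dehydrogenase and Clu a secreted chaperone. Without cluster 7 the values fell to 0.08 for Gsta1, -0.01 for Rdh10, 0.09 for Clu and 0.01 for Gsta4, while Mt2, then first, was at 0.30 and Gsto1, then second, at 0.20. Then followed Akr1b3 (0.19), an aldose reductase, Higd1a (0.16), AA467197 (0.14), Mt1 (0.14) and Ftl1 (0.14). Without the cell of cluster 5 that was high in both the score and the metallothioneins, the values were 0.12 for Mt2, 0.06 for Mt1, 0.10 for Gsto1, 0.06 for Akr1b3, 0.02 for Higd1a, 0.07 for Ftl1 and 0.16 for AA467197. All are descriptions over cells of 1 library.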
